A study of Rattus norvegicus with 6 samples.

Results

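The genes described here drive DNA replication and mitosis. They were 40 rat genes listed by name: 25 with roles in mitosis, 11 in DNA replication or nucleotide supply, and 4 regulators of the passage from G1 into S phase. A gene was followed through the microarray probes whose RefSeq transcript belongs to it, and where several probes did, through the one with the highest mean signal. Of the 40 genes, 35 had such a probe and 34 passed the signal filter, which asks for a spot well above background in all 3 animals of a group, out of 11748 genes tested on the arrays. The renal cortex of 6 male Sprague-Dawley (Crl:CD(SD)) rats, bought at 5 weeks of age, was profiled with 1 Agilent single-colour array per animal. In the 2-Amino-4-nitrophenol group, 3 rats received that nitroaromatic amine at 750 mg/kg/day for 4 weeks, and in the Corn Oil group 3 rats received corn oil for 4 weeks. The comparison asks which renal transcripts differed between dosed and corn oil rats. Of the markers of cortical nephron segments, 10 of 10 for the proximal tubule and 4 of 4 for podocytes were well above background.

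In a dividing cell, MCM helicase subunits open the DNA at replication origins, the PCNA clamp holds the polymerases on it, and ribonucleotide reductase, thymidylate synthase and thymidine kinase supply nucleotides. The E2F factors switch on the genes of S phase. Later, cyclins A and B with the kinase CDK1, and then the Aurora and Polo kinases, drive chromosome segregation, and the mitotic genes are switched on together through CCAAT boxes and the CHR element (cell cycle genes homology region) of their promoters. Most tubule cells of an adult kidney do not divide, so that these transcripts come from a small share of its cells, and tubule cells can re-enter the cycle after injury.

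The promoters of the 2 mitosis and the 2 replication members with the lowest p in the comparison below are printed first, because mitotic and replication genes are known for different promoter elements. Each sequence is the 250 bases before the gene's start, 5′ to 3′ on the gene's strand, from RefSeq on the GRCr8 assembly. Capitals mark a CCAAT box (CCAAT, or ATTGG where it lies on the other strand) or the CHR letters TTTGAA. An E2F motif, searched as TTTCCCGC, TTTGGCGC, TTTCGCGC or TTTGCCGC on both strands, would also be in capitals.
Birc5, chr10:103571896-103572145, + strand: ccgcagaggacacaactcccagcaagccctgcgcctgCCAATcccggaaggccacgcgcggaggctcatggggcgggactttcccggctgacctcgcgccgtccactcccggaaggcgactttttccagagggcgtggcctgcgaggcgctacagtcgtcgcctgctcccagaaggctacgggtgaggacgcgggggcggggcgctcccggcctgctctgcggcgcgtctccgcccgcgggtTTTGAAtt
Kif11, chr1:244536617-244536866, + strand: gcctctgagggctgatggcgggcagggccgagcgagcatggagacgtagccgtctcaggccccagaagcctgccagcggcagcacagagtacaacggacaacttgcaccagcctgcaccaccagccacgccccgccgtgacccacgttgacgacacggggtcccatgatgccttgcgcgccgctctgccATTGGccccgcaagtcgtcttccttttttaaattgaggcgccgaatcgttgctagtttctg
Tk1, chr10:103544778-103545027, - strand: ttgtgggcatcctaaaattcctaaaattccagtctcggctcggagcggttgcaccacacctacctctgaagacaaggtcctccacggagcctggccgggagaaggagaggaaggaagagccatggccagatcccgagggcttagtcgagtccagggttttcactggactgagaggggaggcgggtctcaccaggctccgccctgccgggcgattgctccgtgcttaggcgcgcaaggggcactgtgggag
Pcna, chr3:139955821-139956070, - strand: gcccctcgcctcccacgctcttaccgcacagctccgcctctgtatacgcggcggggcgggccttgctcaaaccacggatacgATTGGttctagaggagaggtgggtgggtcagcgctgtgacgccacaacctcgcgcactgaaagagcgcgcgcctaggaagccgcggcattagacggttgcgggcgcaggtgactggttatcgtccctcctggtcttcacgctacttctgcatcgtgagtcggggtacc

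The Birc5 window held a CCAAT box at -213 and the CHR letters at -8, counted from the gene's start. Kif11 and Pcna had a CCAAT box on the other strand, at -61 and -168, and the Tk1 window held none of these letters. Of the 20 mitosis members tested, 14 were in the promoter table, and 12 of those (85.7%) held a CCAAT box, against 35% of 21851 protein-coding promoters of the same length. The CHR letters were in 5 of the 14 (Birc5, Ccnb2, Cdc20, Cdk1 and Prc1; 35.7%) and an E2F motif in 1 (Cdk1). Of the 8 replication members in the table, 5 held a CCAAT box, 1 (Mcm2) the CHR letters and 4 (Mcm2, Mcm6, Mcm7 and Tyms) an E2F motif. Over all protein-coding promoters the shares were 15.2% for CHR and 2.22% for E2F. These matches describe letters in 1 window and show no binding. Birc5 and Tk1 are neighbours on chromosome 10, with 1 protein-coding gene, Afmid, and 1 uncharacterised locus between them.

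Mitosis genes differed widely between animals of the same group. The median of the 20 mitosis members, each set against its own Corn Oil mean on the log2 scale, was 0.0044, 1.40 and 0.059 on 2-Amino-4-nitrophenol replicates 1, 2 and 3, against 0.43, -0.68 and 0.19 on Corn Oil replicates 1, 2 and 3. 2-Amino-4-nitrophenol replicate 2 was thus high and Corn Oil replicate 2 low, with the other 4 animals between them. Replicate numbers are those of the scanner files; in the authors' value table the same arrays stand under other replicate numbers of their group, and which numbering is right is unknown. For 15 of the 20, both other dosed animals lay inside the range of the Corn Oil animals, while 2-Amino-4-nitrophenol replicate 2 lay above that range for 19. Over the 11748 genes tested, these counts were 1896 and 5499. In bulk tissue, a difference in the share of dividing cells and a difference in these RNAs per cell cannot be told apart.

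No member passed the test across all genes. In limma, 0 of the 34 members had an adjusted p under 0.05 (lowest 0.181, Tk1), against 3 of 11748 genes (0.0255%). At an unadjusted p under 0.05 there were 3 members, Birc5, Tk1 and Pcna (8.82%), all with higher values in dosed rats. Over all genes 14.3% were higher and 7.29% lower by that rule, so the members' share was not above the background. For the same 3 members the arrays of the groups did not overlap on the probe used. The same held for 30.2% of all genes (20.1% higher, 10.1% lower in dosed rats). All 3 had overlapping groups after scaling on spike-in controls, and Pcna also on its other probe. The median log2 change was 0.53 for the 20 mitosis members, 0.14 for the 10 replication members and 0.42 for the 4 G1/S regulators, beside 0.04 for all genes tested. After scaling on spike-in controls, which put the median of all genes at -0.28, the replication median changed sign to -0.18 and the mitosis median was 0.21. Without 2-Amino-4-nitrophenol replicate 2, the mitosis median was -0.0072 and the replication median 0.010. Corn Oil replicate 2 lay on a slide of its own, and blocking by slide gives the same values as leaving it out: 0.19 for the mitosis median and 0.024 for the replication median. By the array barcodes, all dosed arrays lay in row 2 of the other slide and Corn Oil replicates 1 and 3 in its row 1. Dose and row cannot be told apart on that slide.

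**Figure D1:**
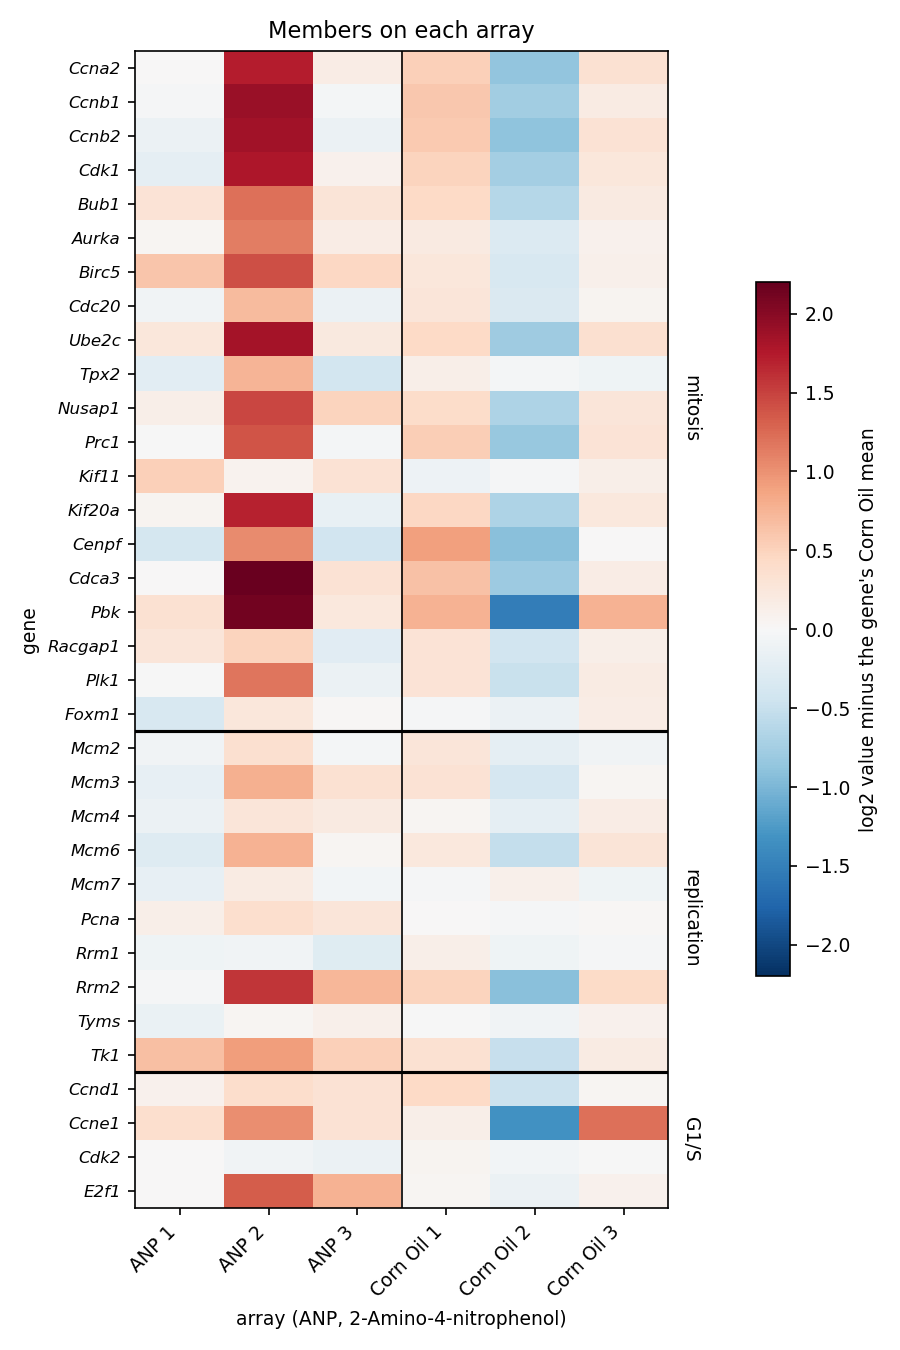
Log2 value of each of the 34 members tested (rows) on each of the 6 arrays (columns; ANP is 2-Amino-4-nitrophenol), minus the gene's mean over the 3 Corn Oil arrays. Most mitosis rows are red on ANP replicate 2 (median 1.40) and blue on Corn Oil replicate 2 (median -0.68), and most replication rows are pale on every array.

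The order of the animals was shared by most members. Of the 34 members, 28 had their highest value of the 6 arrays on 2-Amino-4-nitrophenol replicate 2 and 27 their lowest on Corn Oil replicate 2, and for 25 (73.5%) both were true. Over all genes tested the shares were 35.8% and 22.3%, and both were true for 11.4%. Within the members it was so for 17 of 20 mitosis genes, 7 of 10 replication genes and 1 of 4 G1/S regulators (E2f1). The 17 include Pbk, which was not well above background on Corn Oil replicate 2. With a filter on all 6 arrays, which drops Pbk, 27 of 33 members were highest on 2-Amino-4-nitrophenol replicate 2. In that setting 26 were lowest on Corn Oil replicate 2, and the mitosis median was 0.53. The members have 30 further probes well above background, for 20 of the genes, and of these 20 were highest on 2-Amino-4-nitrophenol replicate 2 and 19 lowest on Corn Oil replicate 2. After spike-in scaling the 28 became 16 and the 27 became 26. Among scanner values, 2-Amino-4-nitrophenol replicate 2 also had the lowest 75th percentile of signal (564, against 627 and 685 on the other dosed arrays and 743 to 852 on the Corn Oil arrays) and the fewest probes above background (61.6%, against 66.1% and 66.3% on the other dosed arrays and 68.1% to 70.9% on the Corn Oil arrays). The part of these differences in the result was not tested.

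The cyclins and their kinase set the timing of mitosis. All values below are log2 signal relative to the array's 75th percentile, in the order of replicates 1, 2 and 3. Ccna2, cyclin A of S phase and early mitosis, had -1.91, -0.19 and -1.75 in dosed rats, against -1.38, -2.78 and -1.58 in Corn Oil rats. Ccnb1, the cyclin that takes cells into mitosis, had -2.58, -0.66 and -2.59 in dosed rats, against -1.97, -3.32 and -2.37 in Corn Oil rats. Cdk1, the kinase both cyclins bind, had 0.05, 2.02 and 0.33 in dosed rats, against 0.73, -0.50 and 0.49 in Corn Oil rats. In each of these genes the second dosed animal was highest and the second Corn Oil animal lowest, while the first dosed animal lay below 2 of the 3 Corn Oil animals. The groups overlapped, and the log2 change of Cdk1 was 0.56 ± 0.58 (SE, n = 3 per group; 1.47-fold; limma adjusted p = 0.602). Without 2-Amino-4-nitrophenol replicate 2 it was -0.05. Ccna2 had a log2 change of 0.63 ± 0.57, Ccnb1 of 0.61 ± 0.61 and Ccnb2, the other B-type cyclin, of 0.53 ± 0.64.

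The kinases and the ubiquitin enzymes of chromosome segregation had the same animals highest and lowest. Plk1, the Polo kinase of spindle assembly, had -1.21, -0.02 and -1.33 in dosed rats, against -0.90, -1.70 and -1.02 in Corn Oil rats. Cdc20, which activates the anaphase-promoting complex, had -0.53, 0.24 and -0.58 in dosed rats, against -0.19, -0.77 and -0.40 in Corn Oil rats. Their groups overlapped, with log2 changes of 0.35 ± 0.40 for Plk1 and 0.17 ± 0.26 for Cdc20. Aurka, the Aurora kinase of the centrosomes, had a log2 change of 0.45 ± 0.31 and the checkpoint kinase Bub1 of 0.59 ± 0.36, while Ube2c, the ubiquitin-conjugating enzyme of the anaphase-promoting complex, had 0.77 ± 0.53. Aurkb, the Aurora kinase of the chromosomal passenger complex, was well above background on 1 dosed and 2 Corn Oil arrays and was not tested. Its signal was -5.65, -4.52 and -5.92 in dosed rats, against -5.17, -8.10 and -5.75 in Corn Oil rats, and values below background have no exact level.

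Birc5 was the 1 mitosis member tested whose dosed animals all lay above its Corn Oil animals. It encodes survivin, a subunit of the chromosomal passenger complex that also restrains apoptosis. Its values were -0.82, -0.02 and -0.98 in dosed rats, against -1.18, -1.79 and -1.32 in Corn Oil rats. The gap between the nearest animals of the groups was small beside the spread within them, and the mean was -0.60 ± 0.52 in dosed rats and -1.43 ± 0.32 in Corn Oil rats (SD, n = 3 each). The log2 change was 0.83 ± 0.29 (SE; 1.77-fold; limma unadjusted p = 0.0274, adjusted p = 0.187). It was 0.53 without 2-Amino-4-nitrophenol replicate 2 and 0.65 without Corn Oil replicate 2, where the unadjusted p was 0.0874. After spike-in scaling it was 0.51 (unadjusted p = 0.0911) and the groups overlapped.

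**Figure D2:**
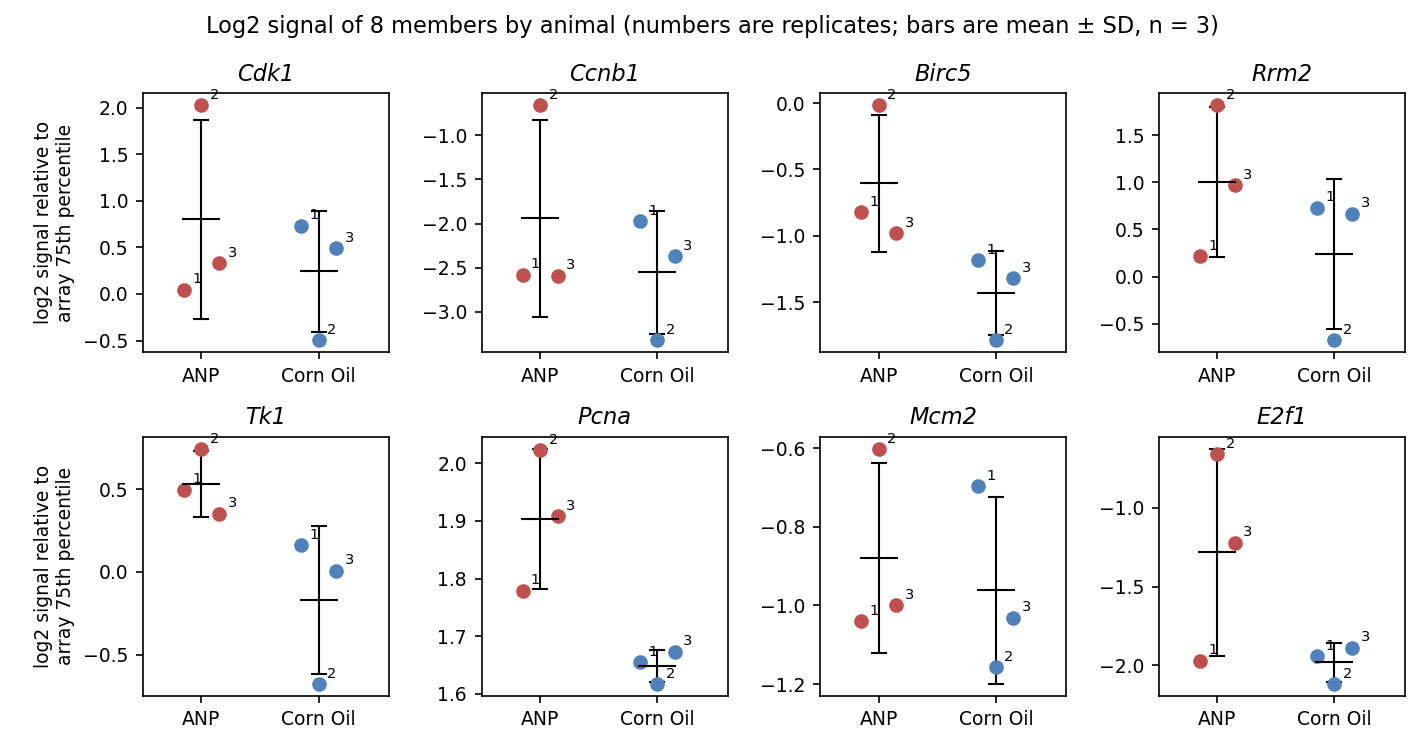
Log2 signal relative to the array's 75th percentile for 8 members, with each point 1 animal (numbered by replicate) and black bars the mean and SD of the 3 animals of a group (ANP, 2-Amino-4-nitrophenol). The axis range differs between panels. On the probes shown, the groups do not overlap for Birc5, Tk1 and Pcna (they overlap for these 3 too after spike-in scaling). They overlap for the other 5, where ANP replicate 2 is the highest point.

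Kif11, Foxm1 and Tpx2 were the 3 mitosis members that did not have both extremes on the second animals. Kif11, the kinesin that pushes spindle poles apart, had 2.80, 2.35 and 2.59 in dosed rats, against 2.16, 2.25 and 2.40 in Corn Oil rats. Its second dosed animal was the lowest of the dosed group and overlapped the Corn Oil range, and the log2 change was 0.30 ± 0.14 (unadjusted p = 0.0653; 0.14 from its other probe above background). Foxm1, the transcription factor that drives many G2 and mitosis genes, had -1.83, -1.24 and -1.46 in dosed rats, against -1.51, -1.61 and -1.33 in Corn Oil rats. Its 6 values spanned 0.59, the smallest span among the 20 mitosis members, and its log2 change was -0.03 ± 0.17. Its other probe, which was dimmer, gave -0.57. There the dosed values (-5.31, -4.59 and -5.31) all lay below the Corn Oil values (-4.55, -4.54 and -4.39). So for Foxm1 the overlap depended on the probe. The span over the 6 arrays was 2.05 at the median of the mitosis members and was 2.98 for Cdca3, which acts in the turnover of mitotic entry regulators. Pbk, a mitotic kinase, passed the filter only through the dosed group: it was not well above background on Corn Oil replicate 2, so its span has no exact value. Log2 changes of the spindle and cytokinesis genes Kif20a, Prc1, Nusap1, Racgap1, Cenpf and Tpx2 were 0.53 ± 0.55, 0.44 ± 0.51, 0.70 ± 0.43, 0.17 ± 0.26, 0.08 ± 0.58 and 0.03 ± 0.30. From other probes above background, Prc1 had 0.13, Racgap1 0.18 and 0.46, and Cenpf -0.72 and 0.0043. Tpx2, which activates the Aurora kinase of the spindle, had a log2 change of -0.32 without 2-Amino-4-nitrophenol replicate 2 (limma unadjusted p = 0.0327, adjusted p = 0.227). In the same fit Kif11 had 0.42 (unadjusted p = 0.0141, adjusted p = 0.181), and neither gene had overlapping groups. Among all genes in that fit, 40.5% had groups that did not overlap and 18.9% had an unadjusted p under 0.05. Mki67, Top2a, Bub1b and Melk among the mitosis genes, and Mcm5 among the replication genes, had no probe named through a RefSeq transcript and were not analysed here.

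Replication members varied less between animals than mitosis members. The within-group SD had a median of 0.71 for the 20 mitosis members and 0.22 for the 10 replication members, beside 0.15 for all genes tested. It lay above the 90th percentile of all genes (0.41) for 16 of the 20 mitosis members and for 3 of the 10 replication members (Mcm3, Mcm6 and Rrm2). Pbk, not well above background on Corn Oil replicate 2, was among the 16. On each array the mean of the mitosis members minus that of the replication members was 0.089, 0.79 and -0.13 in dosed rats, against 0.23, -0.33 and 0.10 in Corn Oil rats. The groups overlapped, and the mean of this difference was 0.25 higher in dosed rats, with an SD of 0.48 among them and 0.29 among Corn Oil rats. It was -0.021 without 2-Amino-4-nitrophenol replicate 2 and 0.085 without Corn Oil replicate 2.

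The MCM subunits, which form the replicative helicase as a ring, were measured for 5 of 6. Mcm2 had -1.04, -0.60 and -0.999 in dosed rats, against -0.70, -1.16 and -1.03 in Corn Oil rats. Mcm6 had -3.90, -2.85 and -3.57 in dosed rats, against -3.38, -4.13 and -3.32 in Corn Oil rats. Both genes had overlapping groups, with the extremes again on the second animals, and the log2 changes of the 5 subunits ran from -0.02 ± 0.12 (Mcm7) to 0.31 ± 0.28 (Mcm3). The 95% interval was -0.34 to 0.50 for Mcm2 and -0.31 to 0.26 for Mcm7. Probes of a subunit could differ in sign: other probes above background gave -0.57 and 0.21 for Mcm4, against 0.11 ± 0.15 from the probe used, and -0.21 and 0.08 for Mcm2, against 0.08 ± 0.17.

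Among the genes around the replication fork and its nucleotides, Pcna and Tk1 had groups that did not overlap on the probe used. For Tk1 this held on its other probe too. Pcna, the sliding clamp, had 1.78, 2.02 and 1.91 in dosed rats, against 1.65, 1.62 and 1.67 in Corn Oil rats. Its Corn Oil animals were nearly alike (SD 0.029, n = 3) and the dosed animals spread above them (SD 0.12, n = 3). On its other probe the log2 change was 0.15 and the groups overlapped (dosed 0.06, 0.43 and 0.16, Corn Oil 0.12, 0.02 and 0.07). On the probe used it was 0.26 ± 0.09 (SE, 1.19-fold, limma unadjusted p = 0.0284, adjusted p = 0.189), and scaling on spike-in controls turned it to -0.06 with overlapping groups. Its unadjusted p was between 0.0573 and 0.0779 in 5 of the 6 fits that left out 1 array, and 0.0108 without 2-Amino-4-nitrophenol replicate 1. Tk1, the cytosolic thymidine kinase of S phase, had 0.50, 0.74 and 0.35 in dosed rats, against 0.16, -0.68 and 0.01 in Corn Oil rats. The dosed animals lay close together and the second Corn Oil animal was well below the other two. The log2 change was 0.70 ± 0.24 (1.63-fold; limma unadjusted p = 0.0242, adjusted p = 0.181), with 0.77 from its other probe, and was 0.45 without Corn Oil replicate 2 (unadjusted p = 0.0282). The unadjusted p was 0.0527 without 2-Amino-4-nitrophenol replicate 1 and 0.0772 without replicate 2 of that group, and after spike-in scaling the change was 0.38 (unadjusted p = 0.209) with overlapping groups.

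The subunits of ribonucleotide reductase, which makes deoxyribonucleotides, differed in their spread. Rrm2, the subunit whose supply follows S phase, had 0.22, 1.82 and 0.97 in dosed rats, against 0.73, -0.68 and 0.67 in Corn Oil rats. Rrm1, the large subunit, had values between -1.53 and -1.35 in dosed rats and between -1.37 and -1.16 in Corn Oil rats. Rrm2 thus had its extremes on the second animals, as the mitosis members did, whereas Rrm1 spanned 0.38 over the 6 animals. The log2 changes were 0.76 ± 0.53 for Rrm2 and -0.14 ± 0.10 for Rrm1, and for both genes the groups overlapped. Other probes above background gave 0.38 and 0.77 for Rrm2, and -0.15 and -0.44 for Rrm1. With the mean over probes Rrm1 had -0.24 (limma unadjusted p = 0.0222, adjusted p = 0.193), with groups that did not overlap, as for 29.0% of all genes. Tyms, thymidylate synthase, had -0.67, -0.49 and -0.41 in dosed rats, against -0.54, -0.60 and -0.44 in Corn Oil rats, with a log2 change of 0.0027 ± 0.10 and a 95% interval of -0.24 to 0.25.

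**Figure D3:**
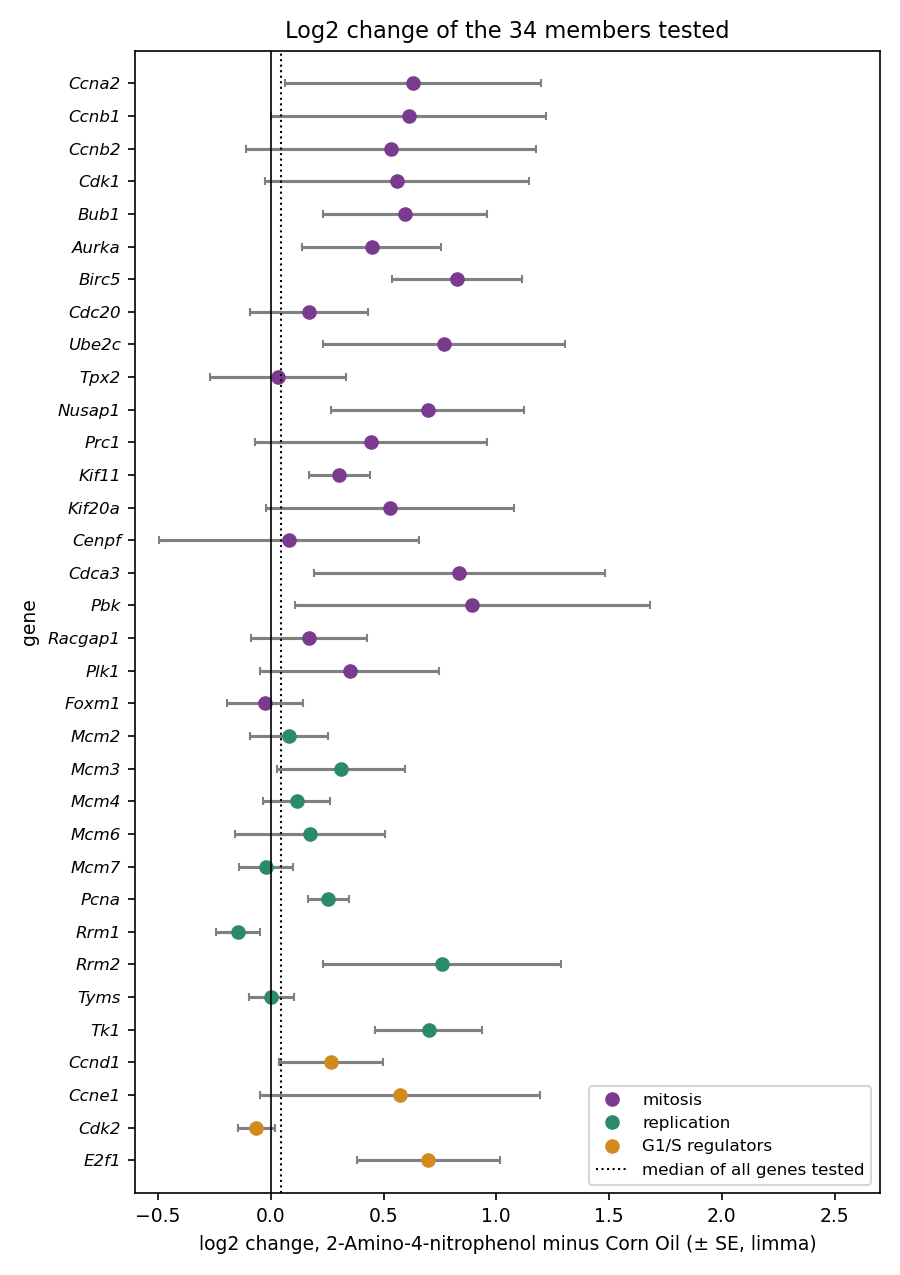
Log2 change (2-Amino-4-nitrophenol minus Corn Oil) of the 34 members tested, with bars of 1 SE from limma (3 animals per group) and a dotted line at the median of all genes tested (0.04). Most mitosis members have wide bars, with a median change of 0.53, against 0.14 for the replication members, which turned to -0.18 after spike-in scaling.

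The G1/S regulators did not act as 1 group. E2f1, an activator of S phase genes, had -1.97, -0.66 and -1.22 in dosed rats, against -1.94, -2.12 and -1.89 in Corn Oil rats. 2 dosed animals lay above all Corn Oil animals and replicate 1 lay among them. Of the other E2f1 probes above background, the one giving 0.92 had overlapping groups. The one giving 0.76 had dosed values (-4.84, -4.16 and -4.52) all above its Corn Oil values (-5.10, -5.79 and -4.92). On the probe used the log2 change was 0.70 ± 0.32 (1.62-fold, limma unadjusted p = 0.0685, adjusted p = 0.262). When single arrays were left out the change ran from 0.39 without 2-Amino-4-nitrophenol replicate 2 (unadjusted p = 0.162) to 1.04 without 2-Amino-4-nitrophenol replicate 1 (unadjusted p = 0.00240, adjusted p = 0.0647). Ccne1, cyclin E of S phase entry, had -3.23, -2.58 and -3.29 in dosed rats, against -3.48, -4.94 and -2.40 in Corn Oil rats. Ccnd1, the growth-responsive cyclin D, had 3.86, 4.16 and 4.10 in dosed rats, against 4.20, 3.30 and 3.81 in Corn Oil rats. In both cyclins the second Corn Oil animal was lowest and a Corn Oil animal was highest, and the log2 changes were 0.57 ± 0.62 for Ccne1 and 0.27 ± 0.23 for Ccnd1. Cdk2, the partner of cyclins E and A, had -0.22, -0.30 and -0.36 in dosed rats, against -0.16, -0.28 and -0.24 in Corn Oil rats, a span of 0.20 over the 6 animals and a log2 change of -0.06 ± 0.08. Without Corn Oil replicate 2 the median of the 4 was -0.03, against 0.42 with it.

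Other genes of the pathway were read from 3 lists that were written with earlier results of these data known. Of 35 other mitosis genes tested (67 listed), 0 had an adjusted or an unadjusted p under 0.05 in limma. Both the highest value on 2-Amino-4-nitrophenol replicate 2 and the lowest on Corn Oil replicate 2 were found for 21 (60%). Over all genes tested that share was 11.4%. Their medians were 0.010, 0.74 and 0.11 on dosed replicates 1, 2 and 3, against 0.27, -0.35 and 0.11 in Corn Oil rats. The lowest p was that of the checkpoint gene Bub3, with a log2 change of 0.28 ± 0.12, followed by the kinase Nek6 (0.32 ± 0.15), the cyclin Ccnf (0.47 ± 0.24) and securin, Pttg1 (0.72 ± 0.40). Pttg1, which holds back chromosome separation, had 0.41, 1.76 and 0.52 in dosed rats, against 0.47, -0.29 and 0.35 in Corn Oil rats, with its highest and lowest values on the second animals, as in Ccnb1 and Cdk1.

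Of 40 other replication genes tested (50 listed), 0 passed the adjusted test, and 8 had an unadjusted p under 0.05 with higher and 1 with lower values in dosed rats, together 22.5%, beside 21.6% of all genes. Rpa2, a subunit of the single-strand binding protein, had a log2 change of 0.30 ± 0.08. Fen1, the flap endonuclease of Okazaki fragments, had 0.32 ± 0.10 (-0.06 from its other probe), and Asf1b, a histone chaperone, had 0.62 ± 0.19. Cdc7, the kinase that fires origins, had -0.46 ± 0.15. The extremes fell on the second animals in both groups for 9 of the 40 (22.5%), beside 11.4% of all genes.

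Of 33 cell cycle regulators tested (41 listed), 0 passed the adjusted test. At a limma unadjusted p under 0.05, 2 had higher and 1 had lower values, together 9.09%, below the 21.6% of all genes. Rbl1, a pocket protein that represses E2F genes, had -5.74, -5.64 and -5.47 in dosed rats, against -4.95, -4.88 and -5.04 in Corn Oil rats, and groups that did not overlap. It was not well above background on any dosed array and passed the filter only through the Corn Oil group, where it was higher. Its level in dosed rats, and so the size of the difference, is not known. With each dosed array set to at least the lowest signal of any probe well above background, it was 1.34-fold lower (measured means -5.62 and -4.96). That floor is not this probe's own limit, so 1.34-fold is not a guaranteed minimum. The lack of overlap and the limma adjusted p of 0.0840 rest on that filter and lend no support to a fall. Cks1b, which helps to degrade the inhibitor p27, had 0.40 ± 0.12, and the CDK inhibitor Cdkn1a 0.46 ± 0.15 from the probe used and -0.55 from its other probe. Rbl2, another pocket protein, had 0.23 ± 0.09. The inhibitors Cdkn1b and Cdkn1c had 0.17 ± 0.09 and 0.21 ± 0.13, Mybl2, an activator of mitotic promoters, 0.25 ± 0.15, and the cyclins Ccne2 and Ccnd2 0.42 ± 0.26 and -0.25 ± 0.15.

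Markers of other cells that could carry dividing cells moved differently across the animals. Fibroblast markers were above background for 8 of 10 (Lum and Postn were not on any array). They were highest on 2-Amino-4-nitrophenol replicate 2 for 7 of the 8 (35.8% of all genes), but lowest on Corn Oil replicate 2 for 1 (22.3% of all genes). Their medians were -0.32, 0.43 and 0.12 in dosed rats, against 0.063, -0.11 and 0.026 in Corn Oil rats, and their summed signal, in units of the 75th percentile, was 23.4 to 41.2 in dosed rats and 26.8 to 30.3 in Corn Oil rats. Leukocyte markers, 10 of 12 tested, had medians of -0.23, -0.15 and -0.023 in dosed rats, against 0.098, -0.19 and 0.042 in Corn Oil rats, and summed to 108 to 127 in dosed rats and 96.2 to 105 in Corn Oil rats. Most of these sums came from Lyz2 (log2 signal 5.85 to 6.57) and Cd74 (4.76 to 5.30), and 5 of the 10 markers had a positive log2 change. Erythroid markers, 7 of 11 tested, had 1.52, 0.62 and 1.08 in dosed rats, with the second animal the lowest of them, against 0.25, -0.26 and 0.010 in Corn Oil rats. They summed to 979 to 1450 in dosed rats and 532 to 775 in Corn Oil rats. For tubular injury markers, 7 of 9 tested, the medians were 0.49, 0.43 and 0.21 in dosed rats, against 0.087, -0.16 and -0.00075 in Corn Oil rats, and the sums 29.7 to 44.8 and 32.6 to 40.0 in the same order of groups. The part of these cells in the result was not tested.

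**Figure D4:**
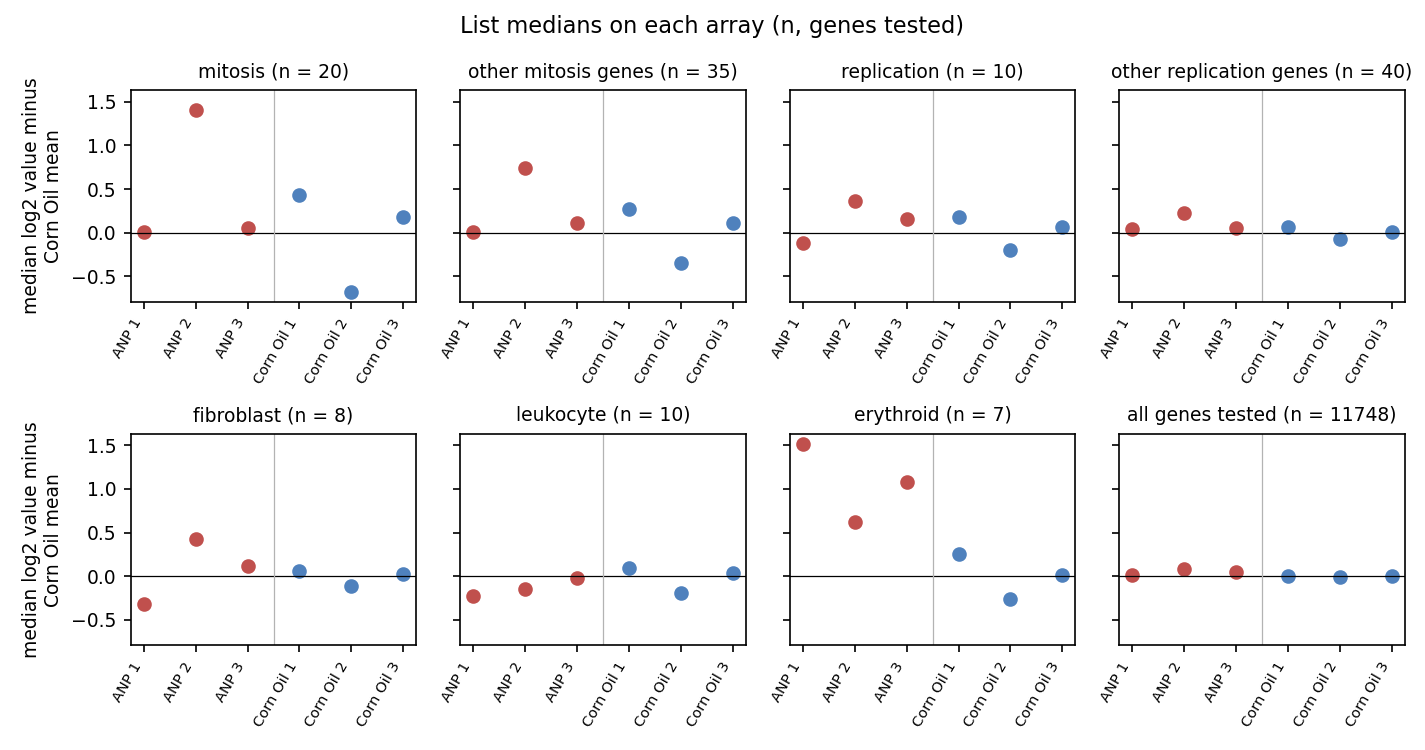
Median over the tested genes of 8 lists on each array (ANP, 2-Amino-4-nitrophenol), each gene set against its own Corn Oil mean on the log2 scale. Both mitosis lists peak on ANP replicate 2 (1.40 and 0.74) and are lowest on Corn Oil replicate 2 (-0.68 and -0.35). The erythroid list is highest on ANP replicate 1 (1.52), and the median of all genes stays between -0.0073 and 0.086.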

How the data were processed

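Cy3-labelled cRNA from 6 renal cortices was measured on single-colour Agilent arrays. The deposited spot intensity came from Agilent Feature Extraction 10.7.1.1 per the file headers (10.7 in the submitters' processing notes), which subtracts background and detrends it. The authors' value table is a deposited ratio of intensity to the 75th percentile of its array, as found by setting it against the scanner values. Its columns fitted scanner files of the same group under a different replicate number, so replicate numbers here follow the scanner files. No probe was saturated.

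The log2 of the deposited intensity, less the 75th percentile of 61657 probes that are not controls, was tested with lmFit and eBayes (limma 3.58.1, R 4.3.3) without a block, with Benjamini-Hochberg adjustment over 11748 genes and a threshold of 0.05. Flagged outlier probes (64) were dropped, and a probe stayed in if every array of either group had it well above background. Names came from RefSeq accessions in the GRCr8 gene table, which held 27460 of 33356. Each array is 1 animal per the labels, and 3 per group limit the precision. The members, lists and rule for named genes (21 members given on every array where measured, whatever their values, with any at an unadjusted p under 0.05; up to 4 per other list) were chosen with earlier results of these data known. The fit was tested on simulated data with noise drawn independently for each gene. The SD of that noise was capped below the median within-group SD of the mitosis members (0.71). The simulation therefore does not cover genes that vary as widely, or together, as these did. Alternatives were other background corrections, scalings, filters, probe rules, blocks and variance models, the value table, and leaving out each array.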

Additional observations from a re-analysis of the deposited data

How the results depend on the processing

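No member had an adjusted p under 0.05 under any of the 17 alternatives (lowest 0.0647, without 2-Amino-4-nitrophenol replicate 1). The count of genes called over the whole table, 3, was 56 after normexp correction, 24 with the trend setting, 9 after spike-in scaling and 0 with no filter on dim probes, with the mean over probes, with the replicate block and with the slide block (3496, 2443, 2121 and 1764 genes at an unadjusted p under 0.05), and 0 to 70 when single arrays were left out (highest without 2-Amino-4-nitrophenol replicate 2, 0 without any 1 Corn Oil array). Members at an unadjusted p under 0.05, 3 in all, were 1 after spike-in scaling (Rrm1, lower), 0 with the replicate block and 1 with the slide block, and 1 to 3 when arrays were left out (1 without Corn Oil replicate 2). With the mean over probes they were 4 (Birc5, E2f1 and Tk1 higher, Rrm1 lower), and Pcna had a limma unadjusted p of 0.0918. Over all genes the share was 20.8% with the mean over probes and 13.0% to 30.7% when arrays were left out. The 3 members whose groups did not overlap were 6 after normexp correction and 3 to 9 when arrays were left out. Over all genes, 30.8% did not overlap after normexp correction. That share was 35.6% to 50.4% when arrays were left out, where groups with fewer arrays separate more easily. After spike-in scaling Birc5, Tk1 and Pcna all overlapped and 2 others, Foxm1 and Mcm7, were apart and lower, beside 26.8% of all genes apart. After spike-in scaling the replication median was -0.18 and the log2 change of Pcna -0.064. When arrays were left out, the mitosis median ran from -0.0072 to 0.78, the replication median from 0.010 to 0.28 and the difference between the mean changes of the mitosis and replication members from -0.021 to 0.44. The cause of these shifts was not tested. By the unadjusted rule over all genes, 1679 of 2535 were higher in dosed rats, against 2101 of 2696 after normexp correction, 967 of 2087 after quantile normalization and 119 of 2541 after spike-in scaling. Same-numbered arrays did not deviate together over all genes (r of -0.050 to 0.0065). The labels state no pairing of the animals, and these values cannot settle whether there was one. Signal over background limited Aurkb and Pbk.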
